A study of Mus musculus with 11 samples.

Results

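The 9 hematopoietic cytokine receptor genes described here are Epor, Kit and Igf1r, receptors through which erythroid cells receive their growth signals, and Csf1r, Csf2rb, Csf2ra, Csf3r, Il3ra and Flt3, receptors used mainly by myeloid cells and their progenitors. They are a list of named genes out of 22367 protein-coding genes, drawn up by name with earlier results of these data known and with no threshold on a measured value, and each was followed over its gene body with 20 kb on each side (1755 windows of 500 bp in all). PU.1 occupancy was measured by ChIP-Seq, which sequences the DNA that an antibody recovers from fixed chromatin and compares it with input DNA taken before the immunoprecipitation. MEL cells are a leukemic erythroblast line, here a single clone (label number 4) that stably carries GATA-1 fused to ER and was kept under puromycin, and ES-EP are erythroid progenitors derived from embryonic stem cells and cultured with erythropoietin, IGF-1, SCF and dexamethasone. In each cell type the anti-PU.1 antibody T-21 was used on 2 chromatin preparations (A and B), each sequenced as 2 libraries that were summed here, and input DNA was sequenced as 1 library in MEL cells and 2 in ES-EP. So n = 2 preparations per cell type, and the groups differ in cell type, culture and the fusion protein together.

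PU.1 is a transcription factor of the Ets family that binds purine-rich DNA with a GGAA core and is best known for its role in myeloid and B cells, where several of these myeloid receptor genes are textbook targets. In erythroid progenitors PU.1 is expressed at a lower level and falls as the cells mature, and in MEL cells its gene is activated by integration of a retrovirus. Epor, Kit and Igf1r encode the receptors for erythropoietin, SCF and IGF-1, Csf1r and Flt3 encode receptor tyrosine kinases for CSF-1 and FLT3 ligand, Csf3r encodes the G-CSF receptor, and Csf2ra and Il3ra encode the ligand-binding chains for GM-CSF and IL-3 that pair with the signalling chain encoded by Csf2rb.

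On the assembled chromosomes MEL A and MEL B hold 5697937 and 6987141 reads next to 4278560 of input. The ES-EP preparations hold 6284725 (A) and 7095855 (B) next to 7488885 of input. A window was called when both preparations exceeded the local depth-scaled input in an exact Poisson test (adjusted p below 0.05, Benjamini-Hochberg over 5309814 windows). The preparations did not pass equally often. MEL B alone passed in 21961 windows and MEL A in 9727, while ES-EP A alone passed in 16739 and ES-EP B in 6100. The preparation with fewer passes thus limited the calls of each cell type. In MEL cells it had fewer reads than the other preparation and in ES-EP it had more, and enrichment apart from depth was not measured. Windows hold few reads each, so that their folds are imprecise, and intervals and floors given here cover counting error only.

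The receptor regions held 8 called windows in MEL cells and 5 in ES-EP, 4 of which were the same windows. Of all windows of the genome 0.133% were called in MEL cells. The share was 0.0952% for ES-EP, and 0.0510% passed in the pair of them. Over the genome 38.2% of the windows called in MEL cells were also called in ES-EP, and 53.6% of those of ES-EP in MEL cells. In MEL cells 5 of the 8 windows lay in the erythroid group (2 at Epor, 3 at Igf1r) and 3 in the myeloid group (1 each at Csf2rb, Csf2ra and Csf3r). In ES-EP 1 of the 5 lay in the erythroid group (Igf1r) and 4 in the myeloid group (2 at Csf2ra, 1 each at Csf2rb and Csf3r). Per length this was 1.04 erythroid and 0.755 myeloid windows per 100 kb in MEL cells, and 0.208 erythroid and 1.01 myeloid windows per 100 kb in ES-EP. Kit, Csf1r, Il3ra and Flt3 had no called window in either cell type. The counts depended on the preparation, and with MEL B or ES-EP A alone deciding 19 and 17 windows of the members passed (14 erythroid and 5 myeloid, and 8 erythroid and 9 myeloid), against 8 and 6 with MEL A or ES-EP B alone.

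**Figure D1:**
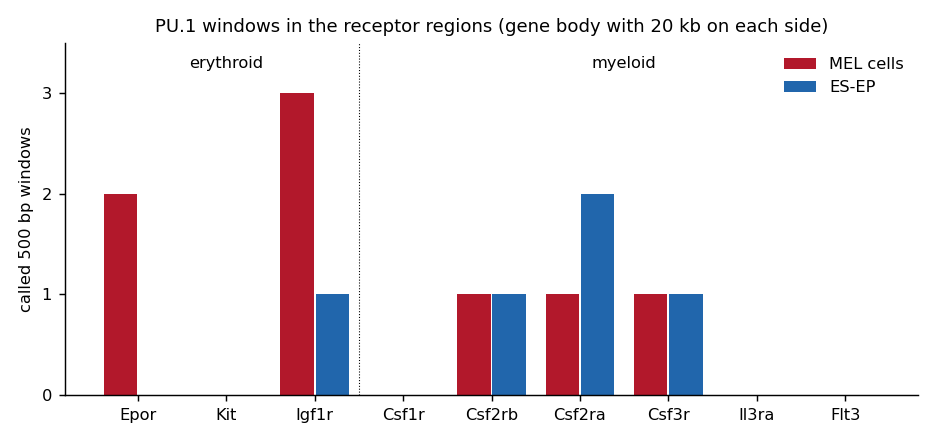
Number of called 500 bp windows (y axis) for each receptor gene (x axis) in MEL cells (red) and ES-EP (blue), over the gene body with 20 kb on each side; a missing bar is 0. The erythroid genes hold 5 of the 8 windows of MEL cells, and the myeloid genes 4 of the 5 of ES-EP. Bars count calls over input and do not compare ChIP reads between the cell types. Both Epor windows and the Csf3r window lie closer to starts of other genes.

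Any called window was present at 5 of the 9 genes in MEL cells and at 4 in ES-EP, next to 31.1% and 25.0% of all protein-coding genes. A called window within 2 kb of the gene's own transcription start site (TSS) was present at Igf1r and Csf2rb in MEL cells and at Csf2rb and Csf2ra in ES-EP, next to 12.8% and 8.95% of all genes. The members are too few to be set apart from genes at large, and the difference in density between the erythroid and the myeloid group has no test, since genes are not replicates. Against the input reads of the same window alone (exact binomial test), 0 of the MEL windows and 2 of those of ES-EP passed the adjusted threshold. Over the genome 1307 windows (0.0246%) passed it in MEL cells and 1866 (0.0351%) in ES-EP, against 7084 and 5053 with the Poisson test. All 8 and all 5 member windows had an unadjusted binomial p below 0.05 in both preparations, which the choice of the windows by the same reads largely fixed. Under 12 alternative settings in MEL cells, Epor and Igf1r had at least 1 called window in 10 each, Csf2rb in 7, Csf3r in 6 and Csf2ra in 4. In ES-EP Csf2rb had one in all 12, Csf2ra in 11, Igf1r in 10 and Csf3r in 9. Genes without a called window also had one under some of the settings, in ES-EP Epor under 3 and Kit, Il3ra and Flt3 under 2 each, and in MEL cells Kit and Flt3 under 2 each and Il3ra under 1.

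The sequences that carry the calls are given 5′ to 3′ on the strand of the receptor gene, as 150 bases around the highest point of the called window with the most depth-scaled reads of each gene (mm9; the stretch of Csf2rb was moved upstream to end before the gene), with a second one for Epor because it had the largest log2 difference between the cell types among the called windows. Capitals mark GAGGAA or GGAAGT on either strand (TTCCTC and ACTTCC are the same words read on the other strand).
Epor, chr9:21759972-21760121, minus strand: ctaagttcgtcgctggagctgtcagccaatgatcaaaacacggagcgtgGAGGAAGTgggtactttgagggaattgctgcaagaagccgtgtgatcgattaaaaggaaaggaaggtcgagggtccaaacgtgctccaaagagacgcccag
Epor, chr9:21751842-21751991, minus strand: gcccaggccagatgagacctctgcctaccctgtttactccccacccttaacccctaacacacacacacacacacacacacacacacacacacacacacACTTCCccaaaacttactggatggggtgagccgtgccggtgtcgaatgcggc
Igf1r, chr7:75130072-75130221, plus strand: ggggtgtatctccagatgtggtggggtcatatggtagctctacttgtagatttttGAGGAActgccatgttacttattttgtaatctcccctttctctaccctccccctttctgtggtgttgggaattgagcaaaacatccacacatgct
Csf2rb, chr15:78156270-78156419, plus strand: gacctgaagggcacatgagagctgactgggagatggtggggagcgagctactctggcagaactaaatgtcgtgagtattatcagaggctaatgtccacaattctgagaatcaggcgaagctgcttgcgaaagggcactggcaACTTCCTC
Csf2ra, chr19:61303542-61303691, minus strand: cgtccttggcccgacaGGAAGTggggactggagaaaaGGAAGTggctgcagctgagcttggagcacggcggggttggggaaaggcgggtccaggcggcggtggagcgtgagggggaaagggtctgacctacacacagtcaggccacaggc
Csf3r, chr4:125735042-125735191, plus strand: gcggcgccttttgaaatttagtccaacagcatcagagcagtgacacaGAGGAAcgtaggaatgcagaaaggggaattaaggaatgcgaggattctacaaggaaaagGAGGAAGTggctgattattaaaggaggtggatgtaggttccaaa
The Csf2rb sequence ends at the base before the annotated gene start, so that its word lies at the start site itself. In the first Epor sequence and in those of Csf3r and, on the other strand, Csf2rb both words overlap as GAGGAAGT. In the sequence of Csf2ra GGAAGT occurs in 2 copies without the preceding GA.

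At Epor (chr9:21763343-21768020, minus strand) both called windows lay downstream of the gene and closer to other genes. The first, chr9:21751501-21752000 in an intron of BC018242, had 22 and 37 reads in MEL A and B against 4 in the MEL input, and 1 and 4 reads in ES-EP A and B against 1 in the ES-EP input. Both MEL preparations therefore lay above both of ES-EP, and MEL reads were 4.13 and 5.66 times the expected number (adjusted p = 6.56e-05 and 2.44e-13, exact Poisson test). The input was also higher in MEL cells (0.935 against 0.134 RPM, reads per 1000000 reads of the track), and over their own input ES-EP A and B were at 1.19-fold (95% interval 0.0152 to 93.5) and 4.22-fold (0.418 to 208), intervals that include the MEL values. All 4 MEL libraries carried it, with 7, 15, 12 and 25 reads, and no ES-EP library had more than 3. The second window, chr9:21760001-21760500, lay with its highest point 151 bp upstream of a start of 2310047B19Rik. It had 16 and 25 reads in MEL cells against 3 in the input (4.00 and 5.10 times expected) and 23 and 28 in ES-EP against 13 (2.11 and 2.27 times expected, adjusted p = 0.225 and 0.0673, exact Poisson test). Both ES-EP preparations (3.66 and 3.95 RPM) lay slightly above both MEL preparations (2.81 and 3.58 RPM), and the input was also higher in ES-EP, at 1.74 RPM against 0.701.

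At the window with the Epor start site itself occupancy was not detectable at this depth, with 8 and 6 reads in MEL cells against 6 in the input and 2 reads in each ES-EP preparation against 4. The amplicon that the study used to measure PU.1 at EpoR by PCR (chr9:21767160-21767244, primers gtccaaaggacctagcacca and gatcgagctcccagagactg) lies in an intron of Epor, 818 bp downstream of the start. The paper reported PU.1 at EpoR, close to its start and/or inside the gene, in both cell types, from ChIP-Seq and by PCR. Its peaks came from merged runs, a less strict rule than a pass in both preparations, and PCR is a different measure. In the 500 bp around the amplicon MEL A and B had 10 and 25 reads against 5 in the input. This is 1.5-fold (95% interval 0.468 to 5.60) and 3.06-fold (1.15 to 10.2) over input by depth. ES-EP A and B had 9 and 14 reads against 10, which is 1.07-fold (0.386 to 2.94) and 1.48-fold (0.610 to 3.72). The window of the grid at this position passed in MEL B alone (adjusted p = 0.00189, exact Poisson test) and had an adjusted p of 1.00 in MEL A.

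Igf1r (chr7:75097713-75371484, plus strand), whose product is the IGF-1 receptor tyrosine kinase, had the most called windows in MEL cells (3), in the longest of the regions (628 windows). In ES-EP, where Csf2ra had 2, Igf1r had 1. Just downstream of its start site, chr7:75098001-75098500 had 17 and 30 reads in MEL cells against 1 in the input, 10.6 and 15.3 times the expected number, and 27 and 17 in ES-EP against 8, 3.57 and 1.99 times expected. Just upstream, chr7:75097001-75097500 had 15 and 23 reads in MEL cells against 1 (6.63 and 8.28 times expected) and 31 and 20 in ES-EP against 11 (3.36 and 1.92 times expected). At both, the MEL preparations and ES-EP A passed and ES-EP B did not, and the depth-scaled ChIP reads of the cell types overlapped while the input was higher in ES-EP. In the 3 kb on each side of the start several further stretches of reads stood over the input, and the windows centred at -1962, -1462 and -962 bp passed in MEL B and ES-EP A only. The window with the start site between them had fewer reads, with 5 and 12 in MEL cells against 2 and 8 and 7 in ES-EP against 11, and it passed in MEL B only (3.67 times expected, adjusted p = 0.0388, exact Poisson test).

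The Igf1r window called in both cell types lay in an intron 32538 bp into the gene, at chr7:75130001-75130500. It had 25 and 31 reads in MEL cells against 5 in the input and 31 and 16 in ES-EP against 3, so that every preparation passed (3.75, 3.80, 12.3 and 5.63 times expected). Its sequence holds GAGGAA with its centre 16 bp from the highest point.

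Kit (chr5:75970941-76052747, plus strand), the SCF receptor, had no called window among 243. Its start site window had 3 and 6 reads in MEL cells against 1 in the input, and 13 and 15 in ES-EP against 16. Single preparations passed in the window centred 810 bp into the gene (MEL B, 10 reads against 4 in MEL A and 1 in the input) and in an intron at 49310 bp (ES-EP A, 27 reads against 11 in ES-EP B and 6 in the input). At an unadjusted p below 0.05 in both preparations (exact Poisson test) 0 of its windows passed in MEL cells, while 3 did so in ES-EP, next to 0.504% and 0.413% of all windows.

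Both chains of the GM-CSF receptor had called windows. At Csf2rb (chr15:78156420-78184277, plus strand), the common signalling chain, the window that holds the start site (chr15:78156001-78156500) had 36 and 40 reads in ES-EP A and B and none in the ES-EP input. With a floor of 3 input reads this is at least 14.3-fold and 14.1-fold over input. MEL A and B had 12 reads each against 1 in the input, 9.01-fold (95% interval 1.33 to 385) and 7.35-fold (1.09 to 314). All 4 preparations passed the exact Poisson test, and both ES-EP values (5.73 and 5.64 RPM) lay above both MEL values (2.11 and 1.72).

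At Csf2ra (chr19:61300305-61304321, minus strand), the GM-CSF binding chain, chr19:61303501-61304000 in an intron had 88 and 53 reads in ES-EP A and B against 2 in the input, 9.36 and 4.99 times the expected number. Over the input of the window alone, which is lower than that around it, this is 52.4-fold (95% interval 14.1 to 440) and 28.0-fold (7.37 to 237) by depth. In MEL A and B the same window had 5 and 15 reads against 6 in the input, 0.626-fold (0.151 to 2.46) and 1.53-fold (0.561 to 4.82), so occupancy was not detectable there. The highest point lay 705 bp downstream of the start site, while the window with the start site had 10 and 9 reads in ES-EP against 6 and 8 and 14 in MEL cells against 6. A second window, 16430 bp upstream at chr19:61320501-61321000, was called in both cell types. It had 20 and 27 reads in MEL cells against 5 (3.0 and 3.31 times expected) and 54 and 29 in ES-EP against 7 (9.19 and 4.37 times expected).

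**Figure D2:**
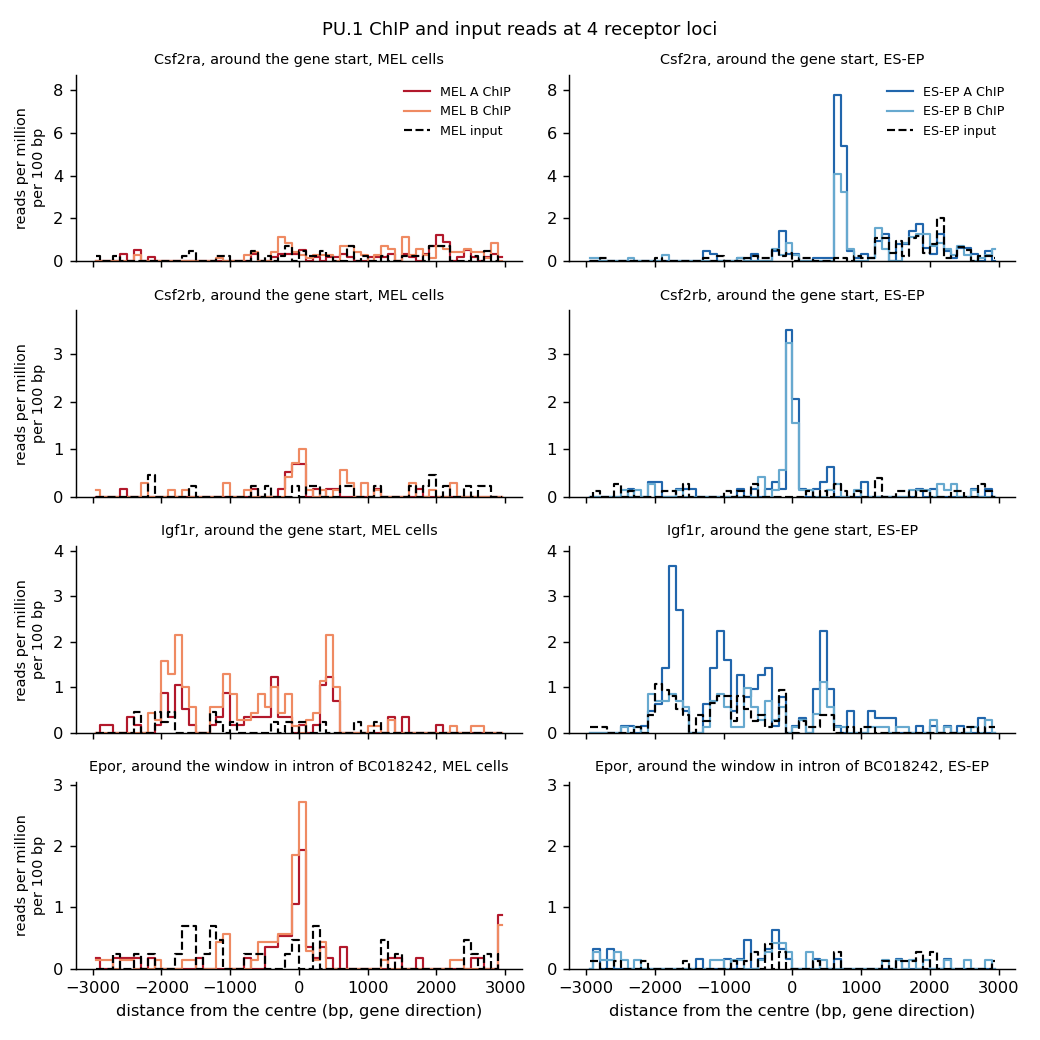
RPM in steps of 100 bp (y axis) against the distance in bp (x axis, in the direction of the gene) from the start of Csf2ra, Csf2rb and Igf1r and from the highest point of the Epor window in the intron of BC018242, with MEL cells on the left and ES-EP on the right. Solid lines are preparations A and B and the dashed line is input; the peak 705 bp into Csf2ra rises in ES-EP only, that of Csf2rb in both, and the Epor window in MEL cells only.

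Csf3r (chr4:125701794-125722219, plus strand) had its called window outside the gene. It was chr4:125735001-125735500, with its highest point 693 bp upstream of a start of Oscp1, and had 12 and 13 reads in MEL cells against 1 in the input (5.30 and 4.68 times expected) and 26 and 13 in ES-EP against 2 (15.5 and 6.86 times expected). All 4 preparations passed. A window in a coding exon of Mrps15 passed in MEL B (47 reads, against 15 in MEL A and 6 in the input) and ES-EP A (41 reads, against 28 in ES-EP B and 21 in the input). The start site window of Csf3r had at most 4 reads in any preparation and none in either input.

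Csf1r on chromosome 18, the receptor of CSF-1, had no window that passed in any single preparation, and none under the 12 alternative settings in either cell type. Its start site window had 2 and 9 reads in MEL cells against 1 in the input and 4 and 2 in ES-EP against 3. Flt3 (chr5:148142317-148212065, minus strand) had 1 and 9 reads at its start in MEL cells against 3, and 5 and 6 in ES-EP against 8. An intron window 18814 bp into Flt3 passed in MEL B alone (17 reads, with 6 in MEL A and 2 in the input), and one 8186 bp upstream passed in ES-EP A alone (20 reads, with 2 in ES-EP B and 3 in the input). Il3ra (chr14:15179009-15188004, plus strand) had 23 reads in ES-EP A against 12 in ES-EP B and 10 in the input just upstream of its start, and this window passed in ES-EP A alone. The start site window of Il3ra had 1 and 4 reads in MEL A and B against 3 in the input, and 5 reads in each ES-EP preparation against 4. The Il3ra region is the least covered, with no input read in 69.4% of its windows in MEL cells and 53.1% in ES-EP, so a lack of calls there says little. At an unadjusted p below 0.05 in both preparations (exact Poisson test), Csf1r (134 windows) had 0 windows in MEL cells and 0 in ES-EP. Flt3 (219 windows) had 0 and 2, and Il3ra (98 windows) had 1 and 1. Over the genome 0.504% of windows in MEL cells and 0.413% in ES-EP did so, and counts this small cannot be set apart from these shares.

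In all, 16 further windows of the members passed in a single preparation of a cell type and were called in neither. MEL B passed in 11 of them and ES-EP A in 10, against 0 for MEL A and 1 for ES-EP B. Over the genome MEL B alone passed in 0.414% of windows, ES-EP A in 0.315%, MEL A in 0.183% and ES-EP B in 0.115%, called windows included.

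**Figure D3:**
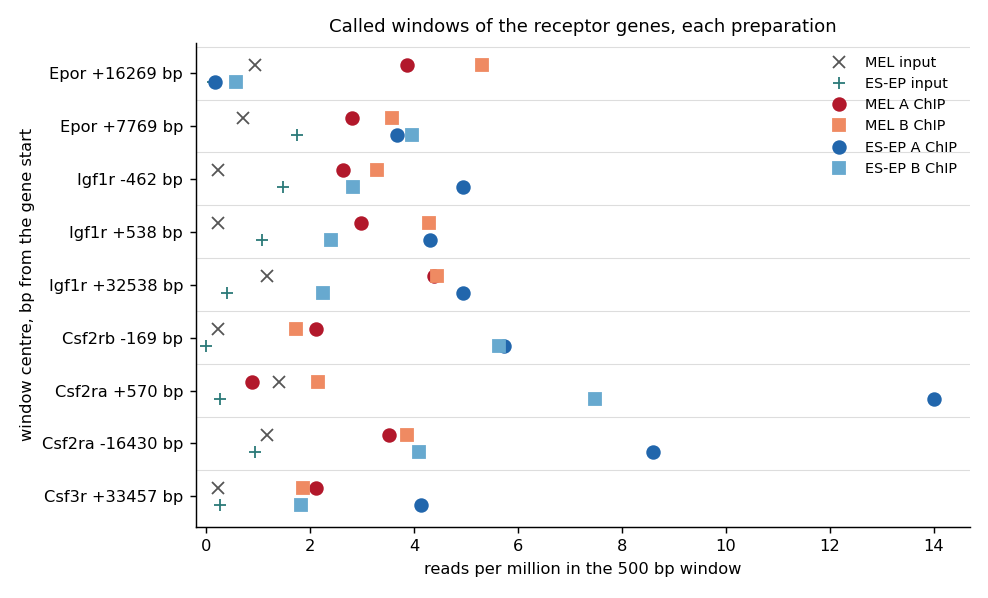
RPM (x axis) in each of the 9 called windows (y axis, by gene and distance of the window centre from the gene start in bp), with circles for preparation A, squares for preparation B and crosses for input, MEL cells in red and grey and ES-EP in blue and green. The ES-EP points reach 14 at Csf2ra +570 bp, and both MEL points lie above both ES-EP points at Epor +16269 bp only.

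The cell types were compared in the windows with at least 20 ChIP reads over the 4 preparations, with limma (voom) fitted over 65012 such windows of the genome. Of the 71 windows of the members that were tested, 1 differed at an adjusted p below 0.05, which was higher in ES-EP, against 0.0815% of all tested windows higher in ES-EP and 0.160% higher in MEL cells. No member window was higher in MEL cells, and 4 of the 71 had an unadjusted p below 0.05 in either direction, next to 4202 of the 65012 tested over the genome. The 1 window was that in the Csf2ra intron, 7.08-fold higher in ES-EP (log2 MEL over ES-EP -2.82, SE 0.65, adjusted p = 0.0163, limma). It passed in 7 of 14 alternative fits with the log2 difference between -3.43 and -2.23 in all of them, and it did not pass when any preparation was left out (adjusted p 0.866 without MEL A, 0.707 without MEL B, 0.956 without ES-EP A and 0.518 without ES-EP B), where 1 cell type has a single preparation that is assumed to vary like the others, or with library 1 or library 2 alone (0.278 and 0.0881, limma).

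The Epor window in the BC018242 intron differed by 3.46 on the log2 scale (SE 1.75, higher in MEL cells) with an adjusted p of 0.768 (limma), and passed in 3 of 14 alternative fits (adjusted p from 2.28e-04 to 0.956). With 1 and 4 reads in ES-EP its difference is poorly determined in this fit. The Csf2rb start site window differed by -1.54 (SE 0.64) with an adjusted p of 0.571 (limma), and passed in 1 of 14. The 6 other called windows had log2 differences between -0.68 and 0.39, with standard errors of 0.61 to 0.65, and none passed in any of the fits.

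Over the whole gene regions the ChIP reads differed for 2 of the 9 members. Il3ra was lower in MEL cells (log2 MEL over ES-EP -0.74, SE 0.19, adjusted p = 0.0188, limma over 22223 genes) and Flt3 was higher in MEL cells (0.59, SE 0.18, adjusted p = 0.0421), against 4.40% of all genes higher in ES-EP and 8.25% higher in MEL cells. Neither has a called window. In 13 alternative fits Il3ra passed in 9 (adjusted p 0.228 without MEL A, 0.0542 without ES-EP A and 0.315 with library 1 alone) and Flt3 in 6 (0.128 without MEL B, 0.298 without ES-EP A, 0.0855 without ES-EP B, 0.216 when scaled by the input ratio of the chromosome and 0.126 with library 2 alone), and with 10 kb flanks neither passed (0.0570 and 0.100, limma). The Il3ra region had 64 and 111 reads in MEL cells against 148 and 154 in ES-EP, and its input had 53 (MEL) and 129 (ES-EP). The Flt3 region had 390 and 521 reads in MEL cells against 280 and 362 in ES-EP, and its input had 379 (MEL) and 372 (ES-EP). By depth the input of Flt3 was thus 1.78 times as high in MEL cells as in ES-EP and that of Il3ra 0.719 times as high, in the same direction as the ChIP reads. Taking ChIP over input, the difference was -0.25 for Flt3 and -0.29 for Il3ra on the log2 scale (an alternative chosen after the data were seen, with no test because MEL cells have 1 input library).

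The 7 other regions had log2 differences from -0.45 (Csf2ra) to 0.44 (Epor) with adjusted p from 0.148 to 0.864 (limma). Among alternative fits that kept all preparations, Epor passed with median-ratio scaling (0.0467, limma) and with each library as a sample (0.0109). Kit passed with each library as a sample (0.00902, limma). Csf2rb passed when scaled by the input ratio of the chromosome (log2 -0.64, adjusted p = 0.0379, limma). Igf1r, Csf1r, Csf2ra and Csf3r passed in none of these fits. For Epor and Kit, 0.44 and -0.41 (SE 0.18 and 0.17), the input again differed in the same direction (1.43 and 0.849 times), while for Csf2ra (-0.45, SE 0.20) and Csf3r (-0.24, SE 0.19) it differed in the opposite direction (1.09 and 1.44 times). Summed over such regions, reads over depth-scaled input ranged from 0.646 (Csf3r, MEL A) to 1.66 (Csf2ra, ES-EP A), and the median log2 ratio over the members was -0.14 in both MEL preparations and 0.07 and 0.24 in ES-EP A and B, beside -0.08, 0.01, 0.04 and 0.07 over all genes with at least 20 input reads in each cell type.

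**Figure D4:**
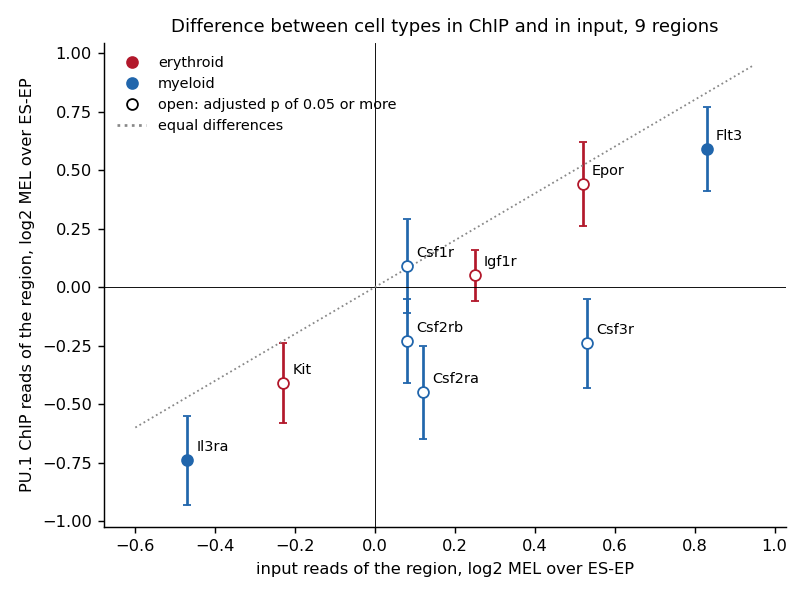
Difference in PU.1 ChIP reads of each gene region (y axis, log2 MEL over ES-EP, bars are the standard error, n = 2 preparations per cell type) against the difference in input reads of the same region (x axis, log2 MEL over ES-EP). Filled points are Il3ra and Flt3, which pass the limma threshold and lie at the ends of the input axis (-0.47 and 0.83), and points on the dotted line have equal differences in both.

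Short words were counted on both strands in the 9 called windows. GAGGAA, the PU.1 core with its preceding GA, occurred in 8 of 9 windows, next to 64.1% of all windows called in MEL cells, 67.8% of those called in ES-EP and 39.3% of all windows of the genome free of unknown bases. GAGGAAGT, which contains it, occurred in 4 of 9 (the windows at Csf2rb, Csf2ra -16430 bp and Csf3r and the Epor window near 2310047B19Rik), next to 30.4%, 33.4% and 3.01%. GGAAGT, a shorter part of the same word that was added after the sequences were seen, occurred in 7 of 9, next to 67.4%, 76.0% and 26.0%, with 2 copies each in the Csf2ra intron window and the Epor window in BC018242. AGATAA, a word bound by GATA factors, occurred in 1 of 9, at Csf2rb 39 bp from the highest point, next to 22.2%, 27.3% and 30.0%. In the Igf1r window 538 bp into the gene neither GAGGAA nor AGATAA was found, and GGAAGT lay 3 bp from its highest point. The nearest GAGGAA was 229 bp from the highest point in the Epor window in BC018242 and 196 bp in the Csf2ra intron window. It was 167 bp away in the Igf1r window just upstream of the start, and 1 to 45 bp away in the other called windows that hold it.

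Among 30 other cytokine and growth factor receptors, listed with the members, 15 had a called window in MEL cells (50.0%) and 12 in ES-EP (40.0%), next to 31.1% and 25.0% of all protein-coding genes, with a median region of 69.2 kb. Genes with a window called in both cell types included Il4ra, Il7r, Il12rb1, Ifnar2, Ifngr1 and Lifr. Il12rb1 and Lifr had 2 such windows each, and only that with the most ChIP reads was located. The Il4ra window lay 3466 bp into the gene (47 and 71 reads in MEL cells against 3, 121 and 66 in ES-EP against 10). The located window of Lifr lay 3192 bp into the gene (36 and 55 against 2, and 33 and 18 against 1). The windows of Il7r and Ifngr1 lay 120 and 504 bp upstream of the start. The located window of Il12rb1 was nearest to the start of Mast3. Of 12 ligands 5 had a called window in MEL cells (41.7%), while 2 had one in ES-EP (16.7%), with a median region of 52.8 kb. Windows called in both were present at Epo (1) and Thpo (2). For each gene the window with the most ChIP reads was closer to the start of a neighbouring gene (Pop7 and Polr2h), and the other window of Thpo was not located. The ligands of Kit, Igf1r, Csf1r and Flt3 (Kitl, Igf1, Csf1, Flt3l) had none.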

How the data were processed

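PU.1 ChIP-Seq and input DNA were taken from both erythroid cell types. Sequencing by the authors was on an Illumina GAII, and they aligned 27 or 28 base reads with ELAND (version not given in the sources used here) to mm9, with up to 2 mismatches and a unique position. Each line of the deposited files is an aligned read, without counts or scores, so every value was made from these lines. Their starts count from 1 (at least 99.9% of 2000 reads per library on chromosome 19 matched the NCBIM37 genome, which is mm9).

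The libraries hold between 2064597 and 4840424 ChIP reads and between 2468968 and 5051235 input reads, and repeated positions make up 2.84 to 9.00% of ChIP reads. Reads were moved by 70 bp (MEL cells) or 65 bp (ES-EP) toward the fragment centre and counted in 500 bp windows of chromosomes 1 to 19, X and Y. The letter of a library was taken as its chromatin preparation, and whether preparations are separate cultures is not given in the sources used here. The limma p-values measure the spread between these preparations. The alternative fit with each library as a sample treats libraries of the same preparation as replicates. It is counted among the alternative fits, and a pass in it overstates the evidence. Poisson and binomial p-values cover counting error within a preparation only, and the Poisson test takes the mean set by input as known without error. In each preparation a window was tested with a Poisson model whose mean was set by input scaled to its depth, as the highest of the window itself, the 5 and 10 kb around it and the genome. Cell types were compared with limma 3.58.1 (voom, R 4.3.3, total reads as library size) over all windows with at least 20 ChIP reads and over all gene regions. Folds over input have exact 95% intervals (Clopper-Pearson on the split of reads), with a floor of 3 reads where input had 0. The window calls and the limma fits were tested on simulated reads, and the other steps were not. The reads simulated for the calls were drawn from the Poisson mean that was then tested, so extra spread between windows was not covered. Genes came from GENCODE vM1, whose gene start was taken as the TSS of a member. The highest point is the centre of the 200 bp with the most ChIP reads.

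The members, gene lists and tests were chosen with earlier results of these data known. Every called window of a member is given, with its start site window and the study's EpoR amplicon, while receptors and ligands of the lists are named when a window is called in both cell types (and, for 4 ligands, when none is). Windows that passed in a single preparation were picked for the text after their values were seen. A receptor of the lists and the nearest profile of Csf2rb are not reported here.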

Additional observations from a re-analysis of the deposited data

Results flagged for a closer look

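The called and the start site windows of the members in each cell type, without the start site window of Igf1r, made 32 groups of 4 ChIP libraries. Of these, 2 held a library far from the 3 others by Dixon's test, and chance alone would give about 1 in 20. At Igf1r -462 bp ES-EP library A2 had 6.36 RPM (reads per 1000000 reads of the library, here 25 reads) and the other ES-EP libraries had 2.55 to 2.89. At Csf2ra +570 bp MEL library B2 had 2.82 RPM (12 reads) and the other MEL libraries had 0.823 to 1.10. What sets these libraries apart was not tested.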

How the results depend on the processing

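The number of member windows called in MEL cells (8) was 0 with the binomial test on the window's own input or library 1 alone, 4 with library 2 alone or an adjusted p below 0.001, 5 with 10 kb flanks, 22 with the preparations summed, and 8 to 19 with 1 preparation left out. That in ES-EP (5) was 2 with the binomial test, 3 with 10 kb flanks, 1 with library 1 alone, 18 with the preparations summed, and 6 to 17 with 1 preparation left out. The calls over the genome moved too. In MEL cells they numbered 7084, against 1307 with the binomial test and 2099 with library 1. They were 4361 with library 2, 4498 with the stricter threshold and 28416 with the preparations summed. In ES-EP they numbered 5053, against 1866 (binomial test), 1379 (library 1) and 19381 (preparations summed). The erythroid minus the myeloid density in MEL cells (0.29 windows per 100 kb) was 0.00 with the binomial test or library 1, 0.54 with 1 read per position or 1 kb windows, 0.79 with the grid moved, 0.59 with 10 kb flanks, 0.83 with library 2 or the stricter threshold, 1.36 with the preparations summed, and 0.29 to 1.66 with 1 preparation left out. In ES-EP (-0.80) it was -0.50 with the binomial test, -0.48 with 10 kb flanks, -0.25 with library 1, and -0.60 to -0.59 with 1 preparation left out. Its sign turned under none of these settings, but they use largely the same reads and windows, so this is no test of a difference between the groups.

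The letters A and B were not treated as pairs, since nothing in the labels ties them across cell types and their deviations correlated with r = 0.00835. With the letter as a replicate block, 0 member windows (1 without it) and 1 gene region (2 without it) differed, since the Csf2ra window at +570 bp (adjusted p = 0.180, limma) and the Flt3 region (0.0972) did not pass. The count of differing member windows was 2 with limma-trend, median-ratio scaling or each library as a sample, 4 with no minimum, 0 with library 1 or library 2 alone, and 0 with any preparation left out. That of gene regions was 4 with each library as a sample, 1 with library 1 or library 2 alone, 0 with 10 kb flanks, and 0 to 2 with 1 preparation left out. The cause of these changes was not tested. Over the genome 157 windows differed, against 10 with the block, 32 and 33 with library 1 or 2, 0 to 1 with 1 preparation left out, 386 with a minimum of 10 reads, 6381 with none, 1743 with limma-trend, 1365 with libraries taken as samples and 1369 with median-ratio scaling. Of gene regions 2811 differed, against 4635 with each library as a sample and 1456 when scaled by the input ratio of each chromosome.

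Some log2 differences turned sign. Scaled by its own input (chosen after the data were seen), the region difference was -0.08 for Epor and -0.21 for Igf1r, and -0.25 for Flt3, which had passed. Igf1r was -0.01 with chromosome scaling, and with 1 preparation left out Csf1r ran from -0.17 to 0.32. Among windows, Epor +7769 was 0.32 with library 1, and with 1 preparation left out Igf1r -462 ran from -0.73 to 0.07, Igf1r +538 from -0.26 to 0.57, Igf1r +32538 from -0.16 to 0.95 and Csf3r +33457 from -1.03 to 0.11. Single windows hold few reads, and the cause of these turns was not tested.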

Other observations

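Each gene region was also compared with those of all other protein-coding genes by its log2 ratio of ChIP over input in the 4 preparations. The nearest profile by Euclidean distance was that of Mpv17l for Epor (distance 0.0485), Cep192 for Kit (0.0245), Osbpl8 for Igf1r (0.0136), Gm7347 for Csf1r (0.0509), Pus1 for Csf2ra (0.0377), Aim1l for Csf3r (0.0635), Bcdin3d for Il3ra (0.0192) and Mapkapk3 for Flt3 (0.0352). With 4 values per gene and 21399 genes searched, near profiles are to be found for any gene. Pus1 had log2 ratios of -0.22 and 0.16 in the MEL preparations and 0.71 and 0.37 in those of ES-EP, and Csf2ra had -0.20, 0.16, 0.73 and 0.35.

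The input DNA itself differed between the cell types around the start of Igf1r and at Kit. In the 5 windows from -1962 to +38 bp of the Igf1r start, the MEL input had 5, 2, 2, 1 and 2 reads. The ES-EP input, which is 1.75 times as deep, had 23, 12, 25, 11 and 11. At the Kit start the input had 1 read in MEL cells and 16 in ES-EP. MEL cells have 1 input library, so the spread of these values between inputs is not known for them.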
